A study of Mus musculus with 4 samples.

Results

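The genes described here encode RNA-binding and RNA-remodelling proteins of the mouse. These are heterogeneous nuclear ribonucleoproteins (hnRNPs), serine/arginine-rich (SR) splicing factors, splicing factor 3 (SF3) subunits, small nuclear ribonucleoprotein (snRNP) proteins, and DEAD-box and DEAH-box helicases. The genes were taken by symbol from the protein-coding genes of a RefSeq table of GRCm38.p6. Symbols began with Hnrnp, Srsf and a digit, Sf3a or Sf3b, Snrp, Ddx and a digit, or Dhx and a digit. Ddx3y was left out. This gave 105 of 21896 genes: 21 Hnrnp, 11 Srsf, 9 Sf3, 12 Snrp, 36 Ddx and 16 Dhx genes. One of them, Hnrnpa1l2-ps2, has a pseudogene symbol but is listed as protein-coding.

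RNA crosslinked to MSI2, a Musashi family RNA-binding protein, had been sequenced (CLIP-seq) from intestinal epithelial cells of C57BL6 mice. There were 2 libraries from wild-type (WT) mice, made from isolated crypts, and 2 from TRE-Msi2 mice, made from the whole epithelium after 24 hours of doxycycline, the drug that switches on a TRE transgene. Genotype, tissue fraction and doxycycline therefore cannot be told apart, and the labels name neither the driver of the transgene nor the age of the mice. The authors deposited 1 peak list per genotype, each pooling 2 libraries. Values therefore come without a replicate error, and nothing was tested between genotypes. Library depths are unknown, and no library of input or total RNA was used here. How much of a peak goes with transcript level was not tested.

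Musashi proteins carry RNA recognition motifs close in sequence to those of the hnRNP A/B proteins and are known for binding RNA at a UAG core. hnRNPs and SR proteins coat nascent RNA and set splice site choice, often against each other, and many of their own transcripts are known to be regulated through alternative exons that send the messenger to decay. SF3 and the Sm proteins of the snRNPs are parts of the spliceosome. DEAD-box and DEAH-box helicases unwind RNA in splicing, export, translation, ribosome assembly and decay.

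The WT list held 12061 peaks and the TRE-Msi2 list 16939, made of bins of 200 nt that were joined where adjacent. The score of a peak is the authors' own and its unit is not stated. In peaks of 1 bin it was a whole number, within 0.01, in 99.1% of cases in WT and in 96.7% in TRE-Msi2, as a read count would be. The scores of joined bins were not all means of whole counts: of peaks of 2 bins, 61.8% in WT and 56.5% in TRE-Msi2 had a score that 2 whole counts can average to. The lowest score of a single bin was 15 in WT and 20 in TRE-Msi2, and joined peaks reached lower. The level of a score was therefore read by its rank within its list, and scores of the 2 lists stand side by side as values that depth may set apart. Intervals below cover counting error only. Those over peaks treat the peaks of 1 gene as independent, so they may be too narrow. Peaks lay in 6 of 8 epithelial marker genes in WT and 7 in TRE-Msi2, with Cdx2 without a peak in both. In either list 0 of 10 stromal and 0 of 8 immune marker genes had a peak. Over all protein-coding genes, 20.3% had a peak in WT and 24.9% in TRE-Msi2. Peaks do not measure expression, so the cell type was not tested by these counts.

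MSI2 peaks lay in most hnRNP and SR protein genes, and in a smaller share of the genes of the spliceosome core and the helicases. In the WT list 16 of 21 Hnrnp genes (76.2%, exact Clopper-Pearson 95% interval 52.8% to 91.8%) and 9 of 11 Srsf genes (81.8%, 48.2% to 97.7%) held at least 1 peak, where 20.3% of all protein-coding genes did. The counts were 3 of 9 Sf3 genes (33.3%, 7.49% to 70.1%), 3 of 12 Snrp genes (25%, 5.49% to 57.2%), 7 of 36 Ddx genes (19.4%, 8.19% to 36%) and 3 of 16 Dhx genes (18.8%, 4.05% to 45.6%). The shares of the Snrp, Ddx and Dhx genes thus stood near the background in WT, and that of the Sf3 genes rests on 9 genes. In the TRE-Msi2 list, where the background was 24.9%, the Hnrnp and Srsf counts were again 16 and 9. The Sf3 and Snrp counts were 4 each (44.4%, 13.7% to 78.8%, and 33.3%, 9.925% to 65.1%). The Dhx count was 3 (18.8%, 4.05% to 45.6%). In both lists the Sf3 and Snrp intervals overlap those of the Hnrnp and Srsf genes. The Ddx count was 12 (33.3%, 18.6% to 51.0%), an interval that holds the background. Over all 105 genes, 41 (39.0%) held a WT peak, 48 (45.7%) a TRE-Msi2 peak, 39 both and 55 neither. The bar plot of shares sets the 6 subfamilies beside the background.

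**Figure D1:**
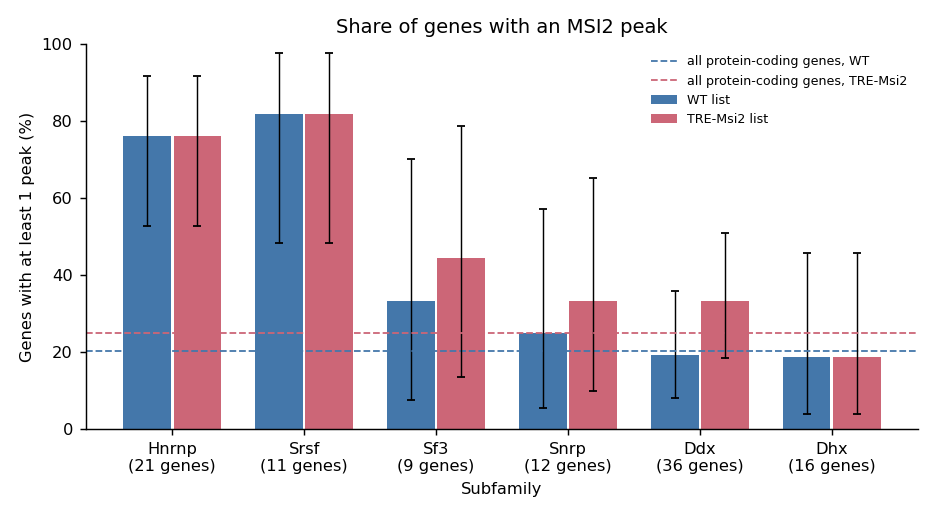
Bars give the percent of genes of each subfamily with at least 1 peak in the WT (blue) and TRE-Msi2 (red) list, error bars the exact 95% binomial interval over genes, and dashed lines the percent of all protein-coding genes (20.3% in WT, 24.9% in TRE-Msi2). Hnrnp (76.2%) and Srsf (81.8%) genes stand above the lines in both lists, and the intervals of the other 4 subfamilies reach the lines.

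Gene spans differed between the subfamilies. The median span was 12.2 kb for Hnrnp, 7.29 kb for Srsf, 17.6 kb for Sf3 and 9.125 kb for Snrp genes. It was 19.4 kb for Ddx, 33.8 kb for Dhx and 17.2 kb for all protein-coding genes. Whether span goes with the shares was not tested. Among genes of 5 to 50 kb, 15 of 19 Hnrnp genes (78.9%) and 8 of 10 Srsf genes (80%) held a peak in each list, where 20.9% of all protein-coding genes of that size did in WT and 25.9% in TRE-Msi2. In the same size range 6 of 31 Ddx genes (19.4%) held a WT peak and 11 (35.5%) a TRE-Msi2 peak, and 3 of 13 Dhx genes (23.1%) held one in each. The Sf3 counts were 3 (37.5%) and 4 (50%) of 8, the Snrp counts 3 (30%) and 4 (40%) of 10, and those of the whole set 38 (41.8%) and 45 (49.5%) of 91. With only the upper 50% of each list by score, the Srsf count was 5 and the Hnrnp count 11 in both lists, and the Ddx count in TRE-Msi2 was 6, where 13.8% of all protein-coding genes kept a WT and 16.6% a TRE-Msi2 peak. Genes with 3 or more peaks made up 3.98% of all protein-coding genes in WT and 6.43% in TRE-Msi2. They were 6 and 8 of the Hnrnp genes, 3 and 3 of the Srsf genes, 2 and 3 of the Ddx genes, 1 and 2 of the Dhx genes, 1 and 1 of the Sf3 genes and none of the Snrp genes.

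Splicing genes outside the set were counted in the same manner. Of 33 splicing regulators, 24 (72.7%) held a WT peak and 25 (75.8%) a TRE-Msi2 peak. Examples are Son, a speckle scaffold protein, with 11 and 12 peaks, the muscleblind gene Mbnl1 with 8 and 8, and the U2AF-related Rbm39 with 4 and 8. Of 25 further genes of the core spliceosome and exon junction complex, 4 (16.0%) and 6 (24.0%) did, near the 20.3% and 24.9% of all protein-coding genes. One example is Prpf8, the scaffold of the catalytic core, with 1 peak in each list and scores of 21 and 36. Of 6 kinases of SR proteins, Clk1, Srpk1 and Srpk2 held peaks in both lists and Clk2, Clk3 and Clk4 in neither. These lists were drawn up with earlier results of these data known and describe the lists only.

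Among the hnRNP A/B genes, Hnrnpa2b1, which encodes a reader of RNA export and sorting signals, held 4 WT and 7 TRE-Msi2 peaks. Its top scores were 34.5 and 37.7, above 94.3% of WT and 90.2% of TRE-Msi2 peaks. Hnrnpa3 held 5 and 6 peaks with top scores of 28 and 33. All 5 Hnrnpa3 peaks of WT were met again at the same places in TRE-Msi2, and the added one was a single bin with a score of 20, the lowest of any single bin. Hnrnpa0, a single-exon gene of 2.68 kb, had the highest WT score of the hnRNP genes, 37.5. It held 3 peaks in WT, whereas in TRE-Msi2 1 peak of 1200 nt with a score of 21.4 lay over them, so its count and scores are not set against each other between lists. Hnrnpa1, the founding member of the family, held 1 wide peak in each list, with scores of 15.6 and 23.1. Reads of Hnrnpa1 may be shared with its processed copies, and how reads with several matches were treated is not given in the sources used here. Hnrnpab held 2 and 5 peaks (top scores 21.4 and 26). All of the WT peaks of Hnrnpab also touched the neighbouring gene span of Phykpl.

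Hnrnpd encodes AUF1, which binds AU-rich elements and hastens decay of messengers. It held the highest TRE-Msi2 score of the set, 58, above 98.5% of the peaks of that list, at positions 99958182 to 99958381 of chromosome 5. The WT list had a peak at exactly these positions with a score of 23, but on the other strand, which is not the strand of Hnrnpd. Between the lists 5928 peaks had identical coordinates, and 158 of them (2.67%) lay on opposite strands. The neighbouring WT peak of Hnrnpd, with a score of 33, had a counterpart of 32 on the same strand. Its relative Hnrnpdl held 1 peak in each list, with scores of 20 and 25.

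In the H/F group, which binds runs of G, Hnrnpf held 2 peaks at the end of its span in both lists, with top scores of 30 and 45. Hnrnph1 held 1 WT peak, with a score of 14.6, and 4 TRE-Msi2 peaks with a top score of 34. Hnrnph2 held 0 and 2 peaks, with a top score of 24, and Hnrnph3 held none. Hnrnpu, a scaffold protein of chromatin and RNA, held 4 and 7 peaks, with top scores of 31 and 37. Of these, 1 in WT and 2 in TRE-Msi2 lay on the strand of Cox20, whose span overlaps the end of Hnrnpu. Hnrnpul2 held 4 and 4 peaks (30.3 and 41). Hnrnpl (23 and 21), Hnrnpm (22 and 31) and Hnrnpc (17.3 and 17.3) held 1 peak in each list. Hnrnpr held 1 WT peak at the lowest single-bin score of 15 and no TRE-Msi2 peak. Hnrnpul1, Hnrnpll and Hnrnpa1l2-ps2 held none in either list.

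Hnrnpk, whose protein binds runs of C, is also the host of the microRNA hairpin Mir7-1, and MSI2 is known from other work to bind the loop of this hairpin together with the RNA-binding protein HuR and to hold back its processing. Hnrnpk held 3 WT and 5 TRE-Msi2 peaks, with top scores of 18 and 37.5. The hairpin lies at positions 58392779 to 58392886 of chromosome 13, on the minus strand, between a peak at 58391240 to 58392439 and another at 58393040 to 58393439. These peaks were present in both lists, with scores of 17.4 and 16.5 in WT and 29.8 and 37.5 in TRE-Msi2. The gaps to the hairpin were 339 nt and 153 nt, and no peak in either list lay over the hairpin itself. This place was looked at after the peak positions had been seen. The 3 mouse hairpins of the miR-7 family are shown for comparison, from RefSeq on GRCm38.p6, with each UAG of the RNA strand in capitals.
Mir7-1: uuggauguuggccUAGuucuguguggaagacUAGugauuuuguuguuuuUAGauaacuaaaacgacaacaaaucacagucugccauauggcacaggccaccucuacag
Mir7-2: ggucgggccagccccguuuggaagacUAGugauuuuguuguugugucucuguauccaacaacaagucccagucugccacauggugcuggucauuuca
Mir7b: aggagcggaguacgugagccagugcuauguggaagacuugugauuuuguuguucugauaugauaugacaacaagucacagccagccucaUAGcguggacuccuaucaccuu

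The Mir7-1 hairpin held 3 UAG, of which 1 lay in the 19 nt between its mature arms, and Mir7-2 and Mir7b held 1 each and none between the arms. A UAG occurred in 71.3% of the 143 mouse hairpins of 100 to 120 nt, so its presence is common. Between the arms it occurred in 17.2% of the 644 hairpins with 2 annotated arms. Of all 1005 hairpins, 26.3% held 2 or more UAG. Whether number or place of the UAG goes with binding was not tested. The same 5′ arm product, miR-7a-5p, comes from Mir7-1 and Mir7-2, and miR-7b-5p shares its seed (bases 2 to 8, in capitals).
miR-7a-5p: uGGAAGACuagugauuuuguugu
miR-7b-5p: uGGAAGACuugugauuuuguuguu
The nearest peak on the strand of Mir7-2 was 19141 nt away in TRE-Msi2, and the nearest to Mir7b was 355679 nt away in the same list.

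SR protein genes held peaks in both lists with the exception of Srsf9 and Srsf12, which held none. Srsf5 held the most, 5 in WT and 5 in TRE-Msi2 at overlapping places, and its top scores were 24 and 42. Srsf3, the smallest SR protein, held 4 and 3 peaks with top scores of 24 and 30.6. Srsf1, the classical splicing activator, held 3 and 3 with top scores of 29.3 and 28.5. The other 6 Srsf genes held 1 peak in each list. In WT these were Srsf2 (26), Srsf6 (19), Srsf4 (18), Srsf7 (17.5), Srsf10 (17) and Srsf11 (17), and in TRE-Msi2 their scores ran from 16.7 in Srsf7 to 28 in Srsf4. The peak of Srsf10, a splicing repressor, lay at different places in the 2 lists: at positions 135865486 to 135865685 of chromosome 4 in WT and 135868086 to 135868285 in TRE-Msi2. Peaks of the Srsf genes rarely stood out within their lists: the top WT peak of the subfamily, in Srsf1, lay above 89.4% of WT peaks, and the top TRE-Msi2 peak, in Srsf5, above 93.7%.

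In the SF3 complex the peaks gathered in 1 gene. Sf3b1, whose protein contacts the branch point and is often mutated in blood cancers, held 3 WT and 4 TRE-Msi2 peaks, with top scores of 34.5 and 48. The peak at 55003157 to 55003356 of chromosome 1, well inside the gene, had a score of 29 in WT and 48 in TRE-Msi2. Sf3b6, the branch-point p14 subunit, held 1 peak with a score of 15 in both lists. Sf3a1 held 1 WT peak (16) and no TRE-Msi2 peak, and Sf3b3 (22) and Sf3b2 (15) held TRE-Msi2 peaks alone. Sf3a2, Sf3a3, Sf3b4 and Sf3b5 held none.

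The snRNP genes held no more than 1 peak each. Those with a peak in both lists encode members of the Sm ring: Snrpe (33 and 46), Snrpg (19 and 25) and Snrpb (19 and 19). The 200-nt bin of Snrpe ranked above 93.0% of WT and 95.7% of TRE-Msi2 peaks, and in both lists it lay at the end of the span. Snrpf, another Sm protein gene, held a TRE-Msi2 peak alone, with a score of 14.3, which also touched the span of Ccdc38. All of these peaks lay within 2 kb of the span end. The Sm protein genes Snrpd1, Snrpd2, Snrpd3 and Snrpn, the U1 protein genes Snrpa and Snrpc, and the U2 protein genes Snrpa1 and Snrpb2 held none.

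**Figure D2:**
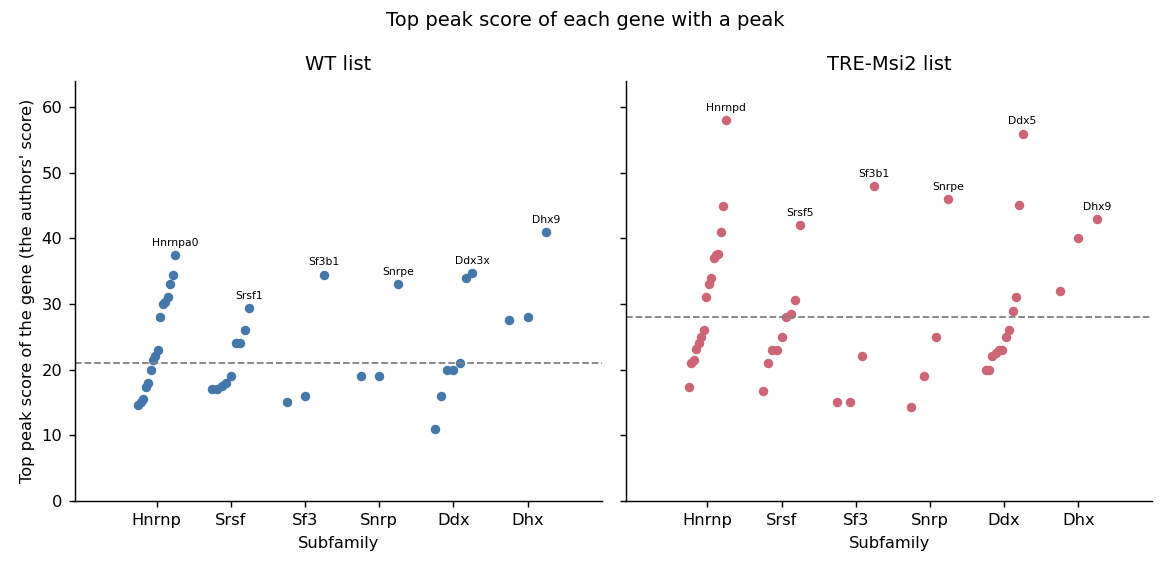
Each point is the top peak score (the authors' score, unit not stated) of a gene with a peak, by subfamily, in the WT (left) and TRE-Msi2 (right) list, and the dashed lines are the medians of top scores over all protein-coding genes with a peak (21 and 28). The highest gene of each subfamily is named. The highest points are Dhx9 (41) in WT and Hnrnpd (58) and Ddx5 (56) in TRE-Msi2, and every subfamily has points on both sides of the WT line except Dhx, whose 3 genes are above it.

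Top scores of the genes with a peak did not follow the order of the shares. The median top score was 22.5 in WT and 32 in TRE-Msi2 for Hnrnp genes, and 19 and 25 for Srsf genes. It was 16 and 18.5 for Sf3, 19 and 22 for Snrp, 20 and 24 for Ddx, and 28 and 40 for the 3 Dhx genes. The value of 40 is the antisense peak of Dhx37, and without this gene the top scores were 41 and 43 in Dhx9 and 28 and 32 in Dhx15. Over all protein-coding genes with a peak the medians were 21 and 28.

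DEAD-box helicase peaks were concentrated in Ddx5 and Ddx3x. Ddx5, also called p68, a cofactor of splicing and of microRNA processing, held 6 peaks in WT and 6 in TRE-Msi2, and its highest scores were 34 and 56. The top bin in TRE-Msi2, at 106786887 to 106787086 of chromosome 11, was also the top bin in WT and lay 24.9% of the way along the gene. Ddx3x, a helicase of translation initiation on the X chromosome, held 5 and 7 peaks. Its widest peak, at 13290875 to 13294074, spanned 3200 nt in both lists and held its top scores, 34.8 and 45.1. Ddx5 and Ddx3x together held 11 of 16 WT and 13 of 27 TRE-Msi2 Ddx peaks. Ddx17, the close paralog of Ddx5, held 1 peak in each list, with scores of 21 and 29, over a span of 19.1 kb.

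The remaining Ddx genes with a WT peak held 1 each. They were Ddx19b (20), a helicase of messenger export, Ddx39a (20), whose peak also touched the span of Adgre5, the interferon-induced Ddx60 (16), and Ddx6 (11), a decapping cofactor of P-bodies. In TRE-Msi2 Ddx6 held 4 peaks, with a top score of 25, all in the last part of its span. TRE-Msi2 peaks without a WT peak were found in Ddx27 (26), Ddx58 (23), which encodes the RNA sensor RIG-I, Ddx19a (22.5), Ddx46 (20) and Ddx55 (20). The peaks of Ddx27 and Ddx55 were antisense, 890 nt and 623 nt from Znfx1 and Eif2b1, which lie on the strand of the peaks. With Ddx27 and Ddx55 left out, 10 of 36 Ddx genes had a TRE-Msi2 peak. A sense TRE-Msi2 peak was held by 20.5% of all protein-coding genes of known strand. Among the 10 Ddx genes, Ddx39a and Ddx6 have no annotated strand, so the strand of their peaks could not be checked. Ddx19a and Ddx19b are near-identical neighbours and may share reads. No peak in either list was found in 24 Ddx genes, among them Ddx21, Ddx10 and Ddx18, nucleolar helicases of ribosome assembly, Ddx39b and Ddx23, which act in the spliceosome, and the germ cell gene Ddx4.

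Mir3064, a hairpin inside Ddx5, stood next to a TRE-Msi2 peak. The hairpin covers 106782693 to 106782759 of chromosome 11, and the peak at 106782487 to 106782686, with a score of 34, ended 6 nt from it on the same strand. WT had no peak there, and its nearest peak was 406 nt away. The TRE-Msi2 peaks of Ddx5 cover 3800 nt of its span of 8.83 kb, so a peak may lie close to any place in it. The closeness was not tested. The RefSeq sequence of the hairpin holds no UAG.
Mir3064: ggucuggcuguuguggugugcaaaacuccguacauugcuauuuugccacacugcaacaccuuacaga
Of the 6 hairpins inside genes of the set for which RefSeq sequences were at hand, none was covered by a peak on its strand in either list. Mir697, Mir6975 and Mir8094 among them lie in Sf3a3 and Ddx39b, which held no peak in either list. The share of all mouse hairpins covered by a peak was not counted, so whether peaks avoid hairpins was not tested.

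**Figure D3:**
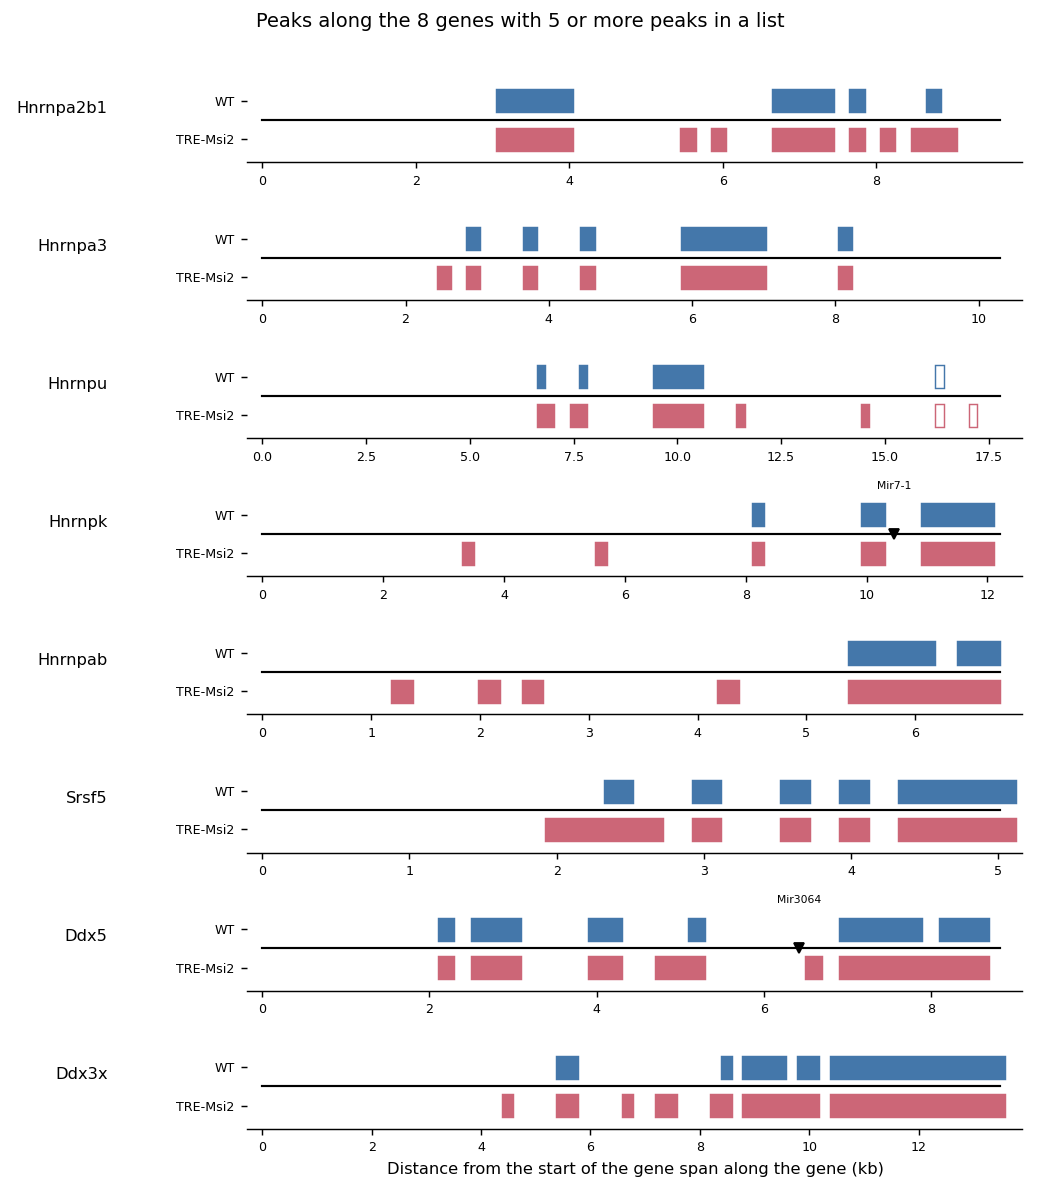
Peaks along the 8 genes of the set with 5 or more peaks in a list, with distance from the start of the gene span in kb; blue boxes are WT peaks, red boxes TRE-Msi2 peaks, open boxes peaks on the opposite strand, and triangles the Mir7-1 and Mir3064 hairpins. Most WT boxes have a TRE-Msi2 box at the same place, and the Mir7-1 hairpin lies in a gap between boxes that both lists share.

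Among DEAH-box genes, Dhx9 and Dhx15 held peaks on their own strand. Dhx9, RNA helicase A, held the highest WT score of the whole set, 41, in a bin centred 214.5 nt from the end of its span, with 43 in TRE-Msi2. It held 3 and 4 peaks. Dhx15, which takes apart the spent spliceosome, held 2 and 3 peaks with top scores of 28 and 32. In Dhx37 the single peak (27.5 and 40) lay on the opposite strand at the same place in both lists, 26938 nt from the nearest gene of known orientation on that strand, so by its strand it does not lie on the Dhx37 transcript. With it left out 2 of 16 Dhx genes held a peak in each list. Of all protein-coding genes of known strand, 16.5% held a sense peak in WT and 20.5% in TRE-Msi2. No peak was found in 13 Dhx genes, including the spliceosomal Dhx8, Dhx16 and Dhx38 and the quadruplex helicase Dhx36.

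Strand could be checked in 93 of the 105 genes. In these, 74 of 77 WT peaks (96.1%) and 100 of 105 TRE-Msi2 peaks (95.2%) lay on the transcribed strand, against 82.4% and 84.2% for all protein-coding genes of known strand. With sense peaks alone, 36 (38.7%) and 41 (44.1%) of the 93 genes held a peak, and 16.5% and 20.5% of all protein-coding genes of known strand did.

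Counted from the WT side, peaks of the set were mostly the same in the 2 lists, as were all peaks in protein-coding genes. Of 84 WT peaks, 79 (94.0%, interval 86.7% to 98%) had a TRE-Msi2 peak over them on the same strand, where the share for all peaks in protein-coding genes was 90.4%. Of 115 TRE-Msi2 peaks, 73 (63.5%, interval 54.0% to 72.3%) had a WT peak over them, against 58.7%. Both intervals hold the background. By subfamily, 16 of 17 TRE-Msi2 peaks of Srsf genes (94.1%, 71.3% to 99.9%) had a WT counterpart, and 30 of 52 (57.7%, 43.2% to 71.3%) of the Hnrnp and 14 of 27 (51.9%, 32.0% to 71.3%) of the Ddx peaks did. The 5 WT peaks without a counterpart lay in Hnrnpd, Hnrnpr, Sf3a1, Srsf10 and Srsf3. The 42 TRE-Msi2 peaks without one had a median score of 23, against 29 for the others, and 32 of them lay in genes that held a WT peak elsewhere. Of the genes of the set with a TRE-Msi2 peak, 9 of 48 had no WT peak, where 23.1% of all protein-coding genes with a TRE-Msi2 peak had none. In the other direction 2 of 41 had no TRE-Msi2 peak, against 5.91%. Single bins made up 63.1% of the WT and 63.5% of the TRE-Msi2 peaks of the set, near the 65.4% and 63% of all peaks in protein-coding genes. In the 38 single bins called in both lists, the TRE-Msi2 score was the higher in 33 (86.8%), with a median ratio of 1.40. Over all 3942 such bins it was the higher in 3771 (95.7%), with a median ratio of 1.52. Single bins scored at least 15 in WT and 20 in TRE-Msi2. A shared bin below 20 in WT therefore had to score higher in TRE-Msi2. With these limits and unknown depths, neither the count nor the ratio measures a change in binding.

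Peaks lay both at the ends and well inside these genes. Read along the strand of each peak, the last 10% of the span held 27 of 84 WT peaks (32.1%, interval 22.4% to 43.2%), and in TRE-Msi2 31 of 115 peaks (27.0%, interval 19.1% to 36%), below the 47.4% and 42.8% of all peaks in protein-coding genes. Antisense peaks near the end of a gene, such as that of Dhx37, count there as early, so the positions were also taken over sense peaks in genes of known strand. There the last 10% held 23 of 74 peaks in WT (31.1%, 20.8% to 42.9%) and, in TRE-Msi2, 26 of 100 (26%, 17.7% to 35.7%), against 57.1% and 50.6% over all such genes. The first 75% held 34 (45.9%, 34.3% to 57.9%) and 52 (52%, 41.8% to 62.1%), against 28.9% and 33.3%. The spans differ, since genes of the set with a peak had median spans of 13.5 kb and 13.9 kb, against 31.3 kb and 29.3 kb for all protein-coding genes with a peak. Over a fixed length the shares were closer. The last 2 kb of genes of at least 10 kb held 18 of 44 sense WT peaks of the set (40.9%, 26.3% to 56.8%), and in TRE-Msi2 21 of 63 (33.3%, 22% to 46.3%), where the shares over all such genes, 47.2% and 40%, lie inside these intervals. All Snrp peaks lay within 2 kb of the end, and so did 13 of 18 WT and 13 of 17 TRE-Msi2 peaks of the short Srsf genes. Among Ddx peaks, 5 of 16 did in the WT list and 7 of 27 in the other. No start window (250 bases before to 50 after a RefSeq start) of the 93 genes that have one was touched by a peak on its strand, and such windows were touched in 0.314% of all protein-coding genes in WT and 0.48% in TRE-Msi2. Whether the inner peaks fall in exons or introns was not analysed here.

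**Figure D4:**
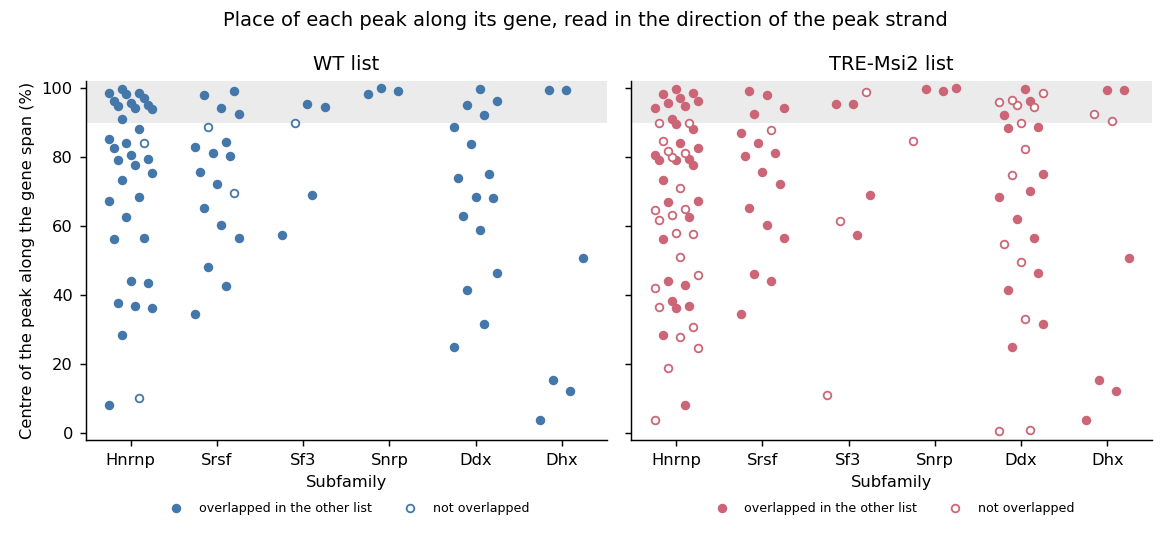
Each point is a peak of the set, placed by subfamily and by the position of its centre along the gene span (percent, read in the direction of the peak, so that antisense peaks near a gene's end stand low), in the WT (left) and TRE-Msi2 (right) list; filled points are overlapped in the other list, open points are not, and the grey band is the last 10% of the span. In WT 79 of 84 points are filled, and Snrp points lie at the top while Hnrnp, Srsf and Ddx points run down through the gene.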

How the data were processed

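MSI2-bound RNA was measured by CLIP-seq in 4 mouse libraries. Per the submitters' processing notes, cutadapt, TopHat and the builds mm9 and mm10 were used, with no version given in the sources used here. Each genotype has 1 Piranha peak list that the authors deposited, with duplicates removed and 2 libraries merged per the file names. Each row holds, in 1 cell, a score and a p-value for the peak, both the authors' own; the score alone was used, ranked within its list, with the unit not stated. Largest coordinates match mm10 (GRCm38).

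A gene held a peak when at least 1 base of its RefSeq GRCm38.p6 span was covered. Strand came from RefSeq start windows, which 93 of the 105 genes have. For 4 others (Ddx39a, Ddx6, Hnrnpul2 and Snrpb) it was set to the strand of their own peaks. It stayed unknown for 8 genes. A peak counted as shared when a peak of the other list touched it, by 1 base or more and in the same orientation. The members and gene lists were chosen with earlier results of these data known. Named genes are, per subfamily, the 5 highest top scores in each list, the 3 with most peaks, and those with peaks in 1 list; other members are added by name for completeness. Overlap code was tested on simulated peaks against bedtools 2.31.1. Python 3.11.15, pandas 2.3.3 and scipy 1.17.1 were used. No genome sequence was used here, so motifs in peaks were not searched. Alternatives are in the closing section.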

Additional observations from a re-analysis of the deposited data

How the results depend on the processing

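Of 104 recomputed values under 8 alternatives, 89 stayed within 1.5 times the count, or inside the 95% interval of the share, and 15 did not. Keeping the upper 50% of each list by score gave 28 members with a TRE-Msi2 peak, 6 Ddx, 5 Srsf, 2 Snrp and 1 Sf3 gene in TRE-Msi2, and 5 Srsf and 1 Sf3 gene in WT, with 80.4% of WT member peaks overlapped. Cutting the TRE-Msi2 list to the WT length by score gave 2 Sf3 and 2 Snrp genes in TRE-Msi2 and 78.6% of WT peaks overlapped. Single-bin peaks alone gave 2 Sf3 and 2 Snrp genes in TRE-Msi2, with 71.7% of WT and 52.1% of TRE-Msi2 peaks overlapped. Shares of all protein-coding genes were not recomputed for the cut list or for single bins. The overlap of all peaks was not recomputed under any alternative. Whether these shifts differ from those of other genes was therefore not tested. The Hnrnp counts were 11 in both lists with the upper 50% and moved by no more than 1.5 times in any of these. Overlap counted without regard to strand was chosen after seeing the data and gave 95.2% of WT and 64.3% of TRE-Msi2 peaks. No paired analysis was possible because each genotype is 1 pooled list, and for the same reason no replicate could be left out. The lowest scores of single bins were 15 in WT and 20 in TRE-Msi2, and joined peaks reached 10.3 and 12.6. A gene without a peak may lie under what was called.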
